A study of Mus musculus with 6 samples.

Results

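Genes that mark endothelial cells, the lining of blood and lymph vessels, were followed in white adipose tissue of mice with and without the transcription factor YY1 in their adipocytes. The members are 45 named genes, of which 43 have a probe set that the array annotation ties to a single gene. Mmrn2 and Gpihbp1 were not analysed here. The 43 are among 12393 genes read the same way, each through its brightest probe set and with no filter on brightness. The list was chosen with earlier results of these data known, and control 2 was known to read low in it. There were 3 samples from YY1aKO mice, in which floxed Yy1 is cut by a Cre transgene driven by the Adiponectin promoter, and 3 from control mice with floxed Yy1 and no Cre. All were 8 weeks old, of a mixed C57BL6 and 129 background, and had spent 4 days at 4 °C. Adiponectin-Cre acts in adipocytes, so endothelial cells are not its target, and effects of Cre itself and of losing Yy1 cannot be told apart. Each sample was hybridised to its own 1-colour Affymetrix array. The labels do not say whether samples came from separate animals, so p-values measure the spread between samples, and they disagree on whether the depot was visceral or subcutaneous.

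Fat is among the most densely vascularised tissues, and its capillaries deliver fatty acids, oxygen and hormones to adipocytes. Adipocytes secrete vascular endothelial growth factors (VEGFs), which act on the receptor tyrosine kinases encoded by Flt1, Kdr and Flt4, while angiopoietins act on the receptor encoded by Tek. Endothelial identity is held by transcription factors of the ETS and SOXF families. In cold, vessels of brown and beige fat are known to grow and to carry more blood. In bulk tissue, fewer endothelial cells and less RNA per endothelial cell cannot be told apart.

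The promoters of 5 of the genes described below are shown, because these genes fell in the comparison without control 2. They are the 5 with the smallest adjusted p among those with a single entry in the RefSeq promoter table (GRCm38.p6), each 300 bases from 250 before to 50 after the gene's start. Capitals mark words searched on both strands: AGGAAG and CGGAAG for ETS factors, ACAATG and ACAAAG for SOX factors, and AGATGGC for YY1.
Aqp1 (chr6:55336049-55336348, plus strand): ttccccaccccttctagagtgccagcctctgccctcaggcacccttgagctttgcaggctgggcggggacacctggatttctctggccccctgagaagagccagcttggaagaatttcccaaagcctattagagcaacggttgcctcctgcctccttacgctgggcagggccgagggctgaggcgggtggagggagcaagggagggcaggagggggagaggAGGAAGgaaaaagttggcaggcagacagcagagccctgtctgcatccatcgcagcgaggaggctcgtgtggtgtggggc
Flt4 (chr11:49609429-49609728, plus strand): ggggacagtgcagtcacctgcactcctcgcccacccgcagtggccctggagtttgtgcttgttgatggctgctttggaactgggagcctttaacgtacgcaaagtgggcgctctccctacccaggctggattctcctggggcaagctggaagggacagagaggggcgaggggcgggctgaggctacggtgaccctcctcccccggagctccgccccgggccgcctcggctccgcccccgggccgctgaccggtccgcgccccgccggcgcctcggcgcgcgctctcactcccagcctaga
Cldn5 (chr16:18776597-18776896, plus strand): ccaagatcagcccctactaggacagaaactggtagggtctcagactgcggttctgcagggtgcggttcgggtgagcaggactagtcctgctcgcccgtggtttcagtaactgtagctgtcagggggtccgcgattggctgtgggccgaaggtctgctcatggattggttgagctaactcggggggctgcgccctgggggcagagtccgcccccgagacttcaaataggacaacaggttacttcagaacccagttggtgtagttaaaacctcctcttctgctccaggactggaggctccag
Selp (chr1:164115014-164115313, plus strand): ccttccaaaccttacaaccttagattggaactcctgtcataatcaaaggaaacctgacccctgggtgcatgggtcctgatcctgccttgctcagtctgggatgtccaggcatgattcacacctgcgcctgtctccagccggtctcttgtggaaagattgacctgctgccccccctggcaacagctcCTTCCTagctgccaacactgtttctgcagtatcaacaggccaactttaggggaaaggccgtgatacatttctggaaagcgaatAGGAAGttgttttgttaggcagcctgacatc
Tek (chr4:94739039-94739338, plus strand): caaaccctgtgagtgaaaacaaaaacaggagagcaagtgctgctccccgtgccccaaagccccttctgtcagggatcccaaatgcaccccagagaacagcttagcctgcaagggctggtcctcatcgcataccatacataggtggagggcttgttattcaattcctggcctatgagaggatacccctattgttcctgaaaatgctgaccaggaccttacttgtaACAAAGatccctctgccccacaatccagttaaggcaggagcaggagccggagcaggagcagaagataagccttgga
An ETS word occurred once in the Aqp1 window and at 2 places in the Selp window, and a SOX word once in the Tek window. The windows of Flt4 and Cldn5 held none of these letters, and none of the 5 held the YY1 word. An ETS word was present in 46.4% of the 28 members with a promoter entry (first entry per gene), against 46.5% of all 32851 promoters. A SOX word was present in 21.4% of these members, against 28.6% of all promoters, and the YY1 word in 10.7%, against 6.40%.

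Median intensities over all probe sets ran from 134 to 137 in YY1aKO and from 139.7 to 140.2 in controls, and precision is limited by how few arrays there are. Yy1 read 373, 323 and 315 in YY1aKO 1 to 3, against 1785, 1846 and 1596 in controls 1 to 3 (log2 difference -2.37 ± 0.11, SE, n = 3 per group, limma adjusted p = 0.0027). Control 2 stood apart: its Pearson correlations with the 5 other arrays, taken over all 12393 genes as a description, were 0.912 to 0.945, and those among the 5 were 0.963 to 0.996. It carried epididymal genes, whose 6 measured markers of 12 listed summed to 183 to 196 in YY1aKO, against 82687 in control 2, 857 in control 3 and 176 in control 1. Each comparison is given with all 6 arrays and with control 2 left out, which leaves 2 controls. Of these, control 3 also read above control 1 in some epididymal genes, with Gpx5 at 639 against 39.0. Lcn8 read nearly the same in both (49.2 and 50.6). The second form was also set because control 2 was known to read low in this gene group. Leaving it out lowers the differences of genes that read low in it, so falls counted without it depend on that choice. The part of the epididymal RNA in the results was not tested.

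With all 6 arrays, none of the 43 endothelial genes passed the test between YY1aKO and control. Their median log2 difference (YY1aKO minus control) was 0.02, and that of all genes 0.04. At a limma adjusted p under 0.05, 0 were higher and 0 lower, beside 6.85% higher and 3.99% lower of all 12393 genes. An unadjusted p under 0.05 was found for 1 of the 43, Pdpn, and for 3488 of all 12393 genes. Control 2 was the lowest of the 6 arrays for 37 of the 43 genes (37.5% of all genes). Its log2 level minus the mean of controls 1 and 3 had a median of -1.19 over the members (range -1.91 to 0.71). It was the highest array for 2 members, Efnb2 and Pdpn (24.5% of all genes). The remaining members were Icam1, Sox7, Vcam1 and Prox1, whose lowest value was in another array.

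**Figure D1:**
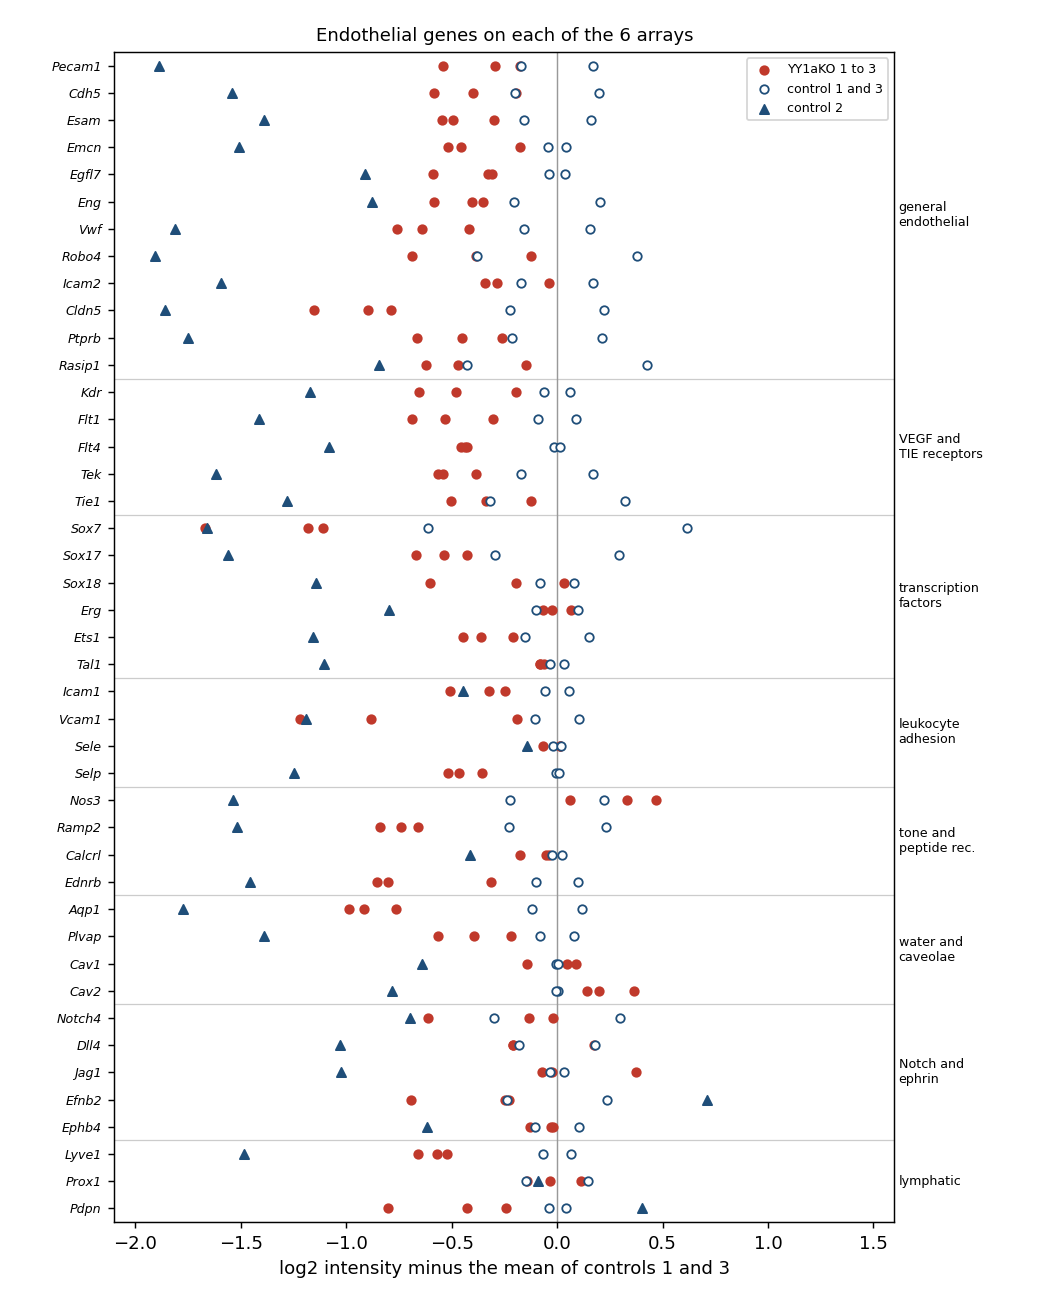
Level of each of the 43 endothelial genes on each array, as log2 intensity minus the mean of controls 1 and 3 (horizontal axis), grouped by role. Filled circles are YY1aKO 1 to 3, open circles controls 1 and 3, and triangles control 2, which was the lowest array for 37 genes.

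Without control 2, most endothelial genes lay lower in YY1aKO. This follows in part from the choice of array. Control 2 minus controls 1 and 3 had a median of -1.19 over the members, against -0.06 over all genes. Leaving it out thus raised the control mean more for members, and the shares of all genes are not a like baseline. The median log2 difference was -0.39, against 0.01 over all genes, and 40 of 43 differences were negative (48.1% of all genes). Of the 43, 11 fell at a limma adjusted p under 0.05 (25.6%, against 11.5% of all genes) and 0 rose (14.7% of all genes). An unadjusted p under 0.05 was common: 23 of the 43 members had one, and so did 4829 of all 12393 genes. All 3 YY1aKO values lay below both controls for 26 members (25.2% of all genes), and above both for 1, Cav2 (30.1%). On the 5 arrays the median of the members lay at -0.52, -0.23 and -0.34 log2 units in YY1aKO 1 to 3, against 0.10 and -0.10 in controls 1 and 3. The number of falls was 7, 5 and 7 with YY1aKO 1, 2 or 3 left out as well, 6 without control 1 and 12 without control 3, where the lone control is assumed to vary like the YY1aKO samples. The calls of Aqp1, Lyve1, Flt4 and Cldn5 held in all 5 of these fits, and the other 7 did not.

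**Figure D2:**
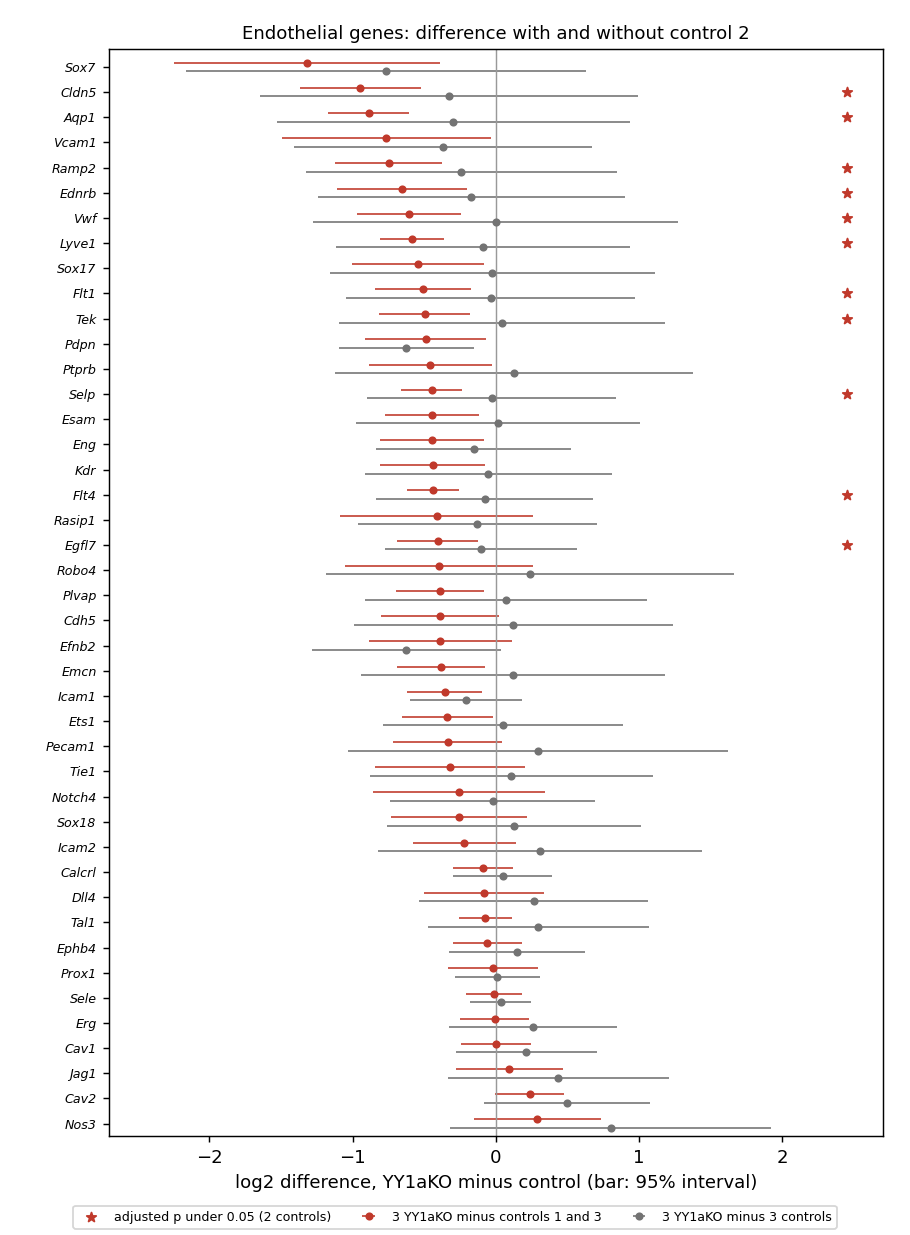
Log2 difference between YY1aKO and control for each endothelial gene (points) with its 95% interval (bars), from limma. Red is 3 YY1aKO against controls 1 and 3, grey is 3 YY1aKO against 3 controls, and stars mark the 11 genes with an adjusted p under 0.05 without control 2.

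The 12 measured genes of general endothelial identity, for junctions, the cell surface, secreted proteins and lumen formation, all had negative differences without control 2, from -0.95 to -0.22, and 3 of them fell. Cldn5, the claudin of endothelial tight junctions, read 440, 565 and 524 in YY1aKO 1 to 3, against 1139, 269 and 837 in controls 1 to 3. Each YY1aKO value was below controls 1 and 3 and above control 2. Its log2 difference without control 2 was -0.95 ± 0.17 (SE, limma adjusted p = 0.014), a 1.93-fold lower level, and -0.33 ± 0.54 with control 2 (adjusted p = 0.74). Vwf, the von Willebrand factor that endothelial cells store for clotting, read 432, 469 and 548 in YY1aKO, against 817, 208 and 656 in controls 1 to 3 (-0.61 ± 0.15, adjusted p = 0.032 without control 2). Egfl7, a secreted regulator of vessel formation, read 449, 545 and 538 in YY1aKO, against 693, 359 and 657 in controls 1 to 3 (-0.41 ± 0.11, adjusted p = 0.048). The call of Vwf was lost without YY1aKO 1, YY1aKO 2 or control 1, and that of Egfl7 without any 1 of the 5 arrays. The other 3 probe sets of Egfl7 had differences of -0.33, -0.20 and -0.01, none past the threshold.

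The defining surface genes Pecam1 and Cdh5 did not pass in either fit. Pecam1, the adhesion molecule CD31, read 200, 258 and 237 in YY1aKO, against 327, 78.4 and 258 in controls 1 to 3. YY1aKO 2 and control 3 read nearly the same. Cdh5, the cadherin of endothelial junctions, read 438, 575 and 498 in YY1aKO, against 754, 226 and 572 in controls 1 to 3, so the groups overlapped. Their differences without control 2 were -0.34 (95% interval -0.72 to 0.04) and -0.39 (-0.80 to 0.02). Esam, Eng, Emcn, Ptprb and Robo4, further genes of the endothelial surface, had -0.45, -0.45, -0.38, -0.46 and -0.40 in turn, with adjusted p from 0.057 to 0.32. Icam2 had -0.22 and Rasip1, a regulator of vessel lumen formation, -0.41.

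All 5 receptor genes had negative differences without control 2, from -0.51 to -0.32, and 3 of them fell. Flt4, the VEGF receptor 3 of lymphatic and some blood vessels, read 94.3, 92.3 and 93.5 in YY1aKO, against 125, 59.7 and 128 in controls 1 to 3. The YY1aKO values were tightly grouped, below controls 1 and 3 (-0.44 ± 0.07, adjusted p = 0.011). Flt1, the VEGF receptor 1, read 244, 272 and 319 in YY1aKO, against 419, 148 and 369 in controls 1 to 3 (-0.51 ± 0.14, adjusted p = 0.043). Tek, the angiopoietin receptor TIE2, read 335, 373 and 329 in YY1aKO, against 548, 159 and 433 in controls 1 to 3 (-0.50 ± 0.13, adjusted p = 0.039). In each of the 3 genes YY1aKO lay between control 2 and the other controls. Kdr, the main signalling receptor of VEGF-A, read 487, 671 and 551 in YY1aKO, against 801, 341 and 736 in controls 1 to 3 (-0.44, adjusted p = 0.081). Tie1, the orphan partner of TIE2, read 47.2, 61.2 and 52.8 in YY1aKO, against 83.3, 27.5 and 53.5 in controls 1 to 3 (-0.32, adjusted p = 0.32). The call of Flt1 was lost without YY1aKO 1, YY1aKO 2, control 1 or control 3, and that of Tek without any of the YY1aKO arrays or control 1. The further probe sets of Flt1 had -0.18 and -0.23 and that of Flt4 had -0.26, none past the threshold.

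**Figure D3:**
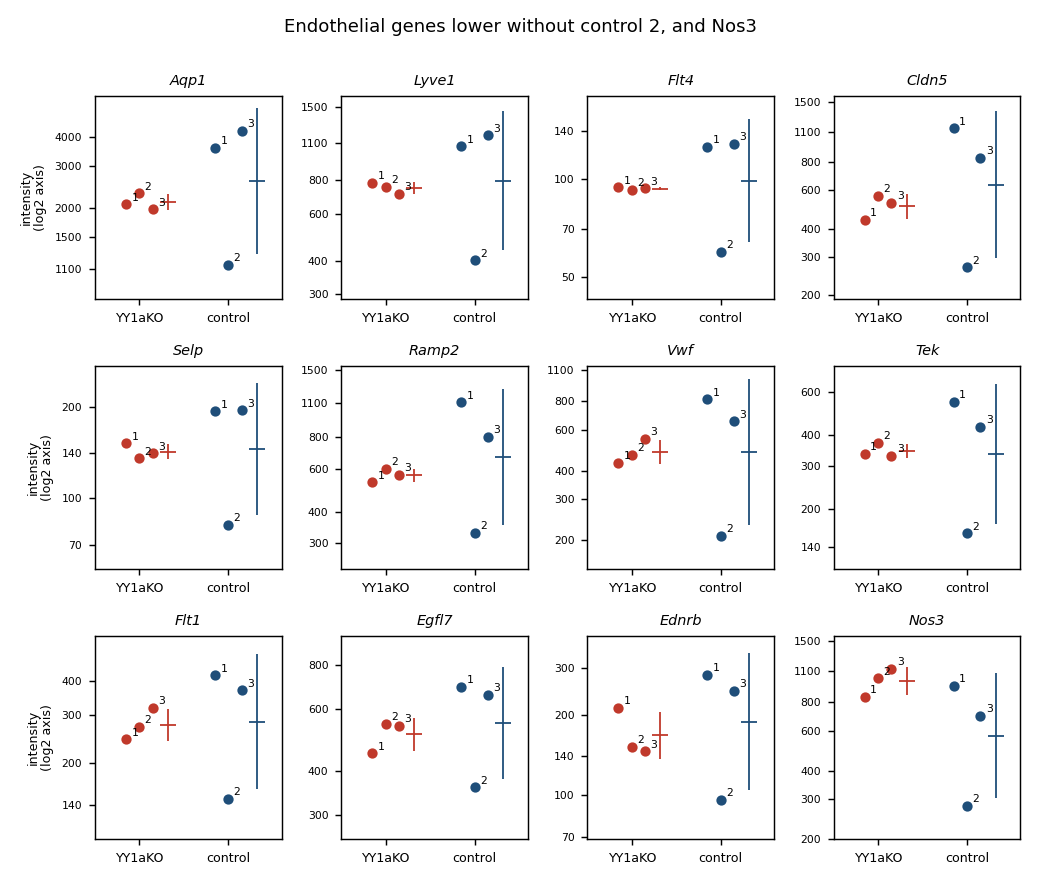
Intensity (log2 axis) of the 11 endothelial genes that were lower without control 2, and of Nos3, in YY1aKO (left) and control (right). Numbers give the replicate, and the bar gives the mean ± SD of the log2 values of the 3 arrays. In the 11 genes YY1aKO lies between control 2 and the other controls.

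None of the 6 transcription factors passed. Sox7, a SOXF factor, had the largest difference of any member without control 2 (-1.32 ± 0.38, adjusted p = 0.051), with 148, 218 and 207 in YY1aKO, against 720, 149 and 307 in controls 1 to 3. Control 1 read far above the other controls. With control 3 left out as well it passed at -1.93 (adjusted p = 0.0089), and with control 1 left out as well it had -0.70 (adjusted p = 0.084). The other SOXF genes, Sox17 and Sox18, had -0.54 (adjusted p = 0.085) and -0.25. Ets1, an ETS factor, had -0.34, Tal1, a basic helix-loop-helix factor, -0.07, and Erg, the ETS factor most typical of endothelium, -0.01 (95% interval -0.25 to 0.23). Erg was dim, at 47.9 to 52.6 in YY1aKO, against 28.9 to 53.9 in controls, which limits what its interval shows.

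Among the genes for leukocyte capture, Selp (P-selectin) fell. It read 151, 135 and 140 in YY1aKO, against 193, 81.4 and 195 in controls 1 to 3 (-0.45 ± 0.09, adjusted p = 0.016). On its second probe set it had -0.45 and did not pass (limma adjusted p = 0.063 over all probe sets). Its call was lost without YY1aKO 2, YY1aKO 3 or control 3. Vcam1 had -0.76 (adjusted p = 0.12) and Icam1 -0.36 (0.059), both adhesion molecules induced by inflammatory signals. Sele (E-selectin) read 14.3 to 15.2 in YY1aKO, against 13.6 to 15.2 in controls, near the bottom of the range of all intensities (6.09 to 30322).

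Of 4 genes of vascular tone and peptide reception, Ramp2 and Ednrb fell. Ramp2, which pairs with the receptor of Calcrl to bind adrenomedullin, read 529, 599 and 566 in YY1aKO, against 1110, 331 and 807 in controls 1 to 3 (-0.75 ± 0.15, adjusted p = 0.019). Ednrb, an endothelin receptor, read 212, 151 and 146 in YY1aKO, against 283, 96.1 and 246 in controls 1 to 3 (-0.66 ± 0.18, adjusted p = 0.048). Both lay below controls 1 and 3 in every YY1aKO sample. The second probe set of Ednrb had -0.45 and did not pass (limma adjusted p = 0.0545 over all probe sets). Calcrl had -0.09 (95% interval -0.30 to 0.12). Nos3, the endothelial nitric oxide synthase, read 847, 1023 and 1127 in YY1aKO, against 948, 280 and 697 in controls 1 to 3. It was 1 of 3 members with a positive difference without control 2 (0.29 ± 0.18, adjusted p = 0.29), and had 0.80 ± 0.45 with all arrays (adjusted p = 0.31). The call of Ramp2 was lost without any 1 of the YY1aKO arrays, and that of Ednrb without YY1aKO 2, YY1aKO 3, control 1 or control 3.

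Aqp1, the water channel of capillary endothelium, had the smallest p of the members without control 2. It read 2072, 2302 and 1973 in YY1aKO, against 3597, 1144 and 4248 in controls 1 to 3. YY1aKO lay well apart from controls 1 and 3, and above control 2 (-0.89 ± 0.12, adjusted p = 0.0054, a 1.85-fold lower level). Plvap, of the diaphragms of fenestrated capillaries, had -0.39 (adjusted p = 0.070). Neither caveolin gene passed: Cav1 had -0.0027 (95% interval -0.25 to 0.24) and Cav2 0.23 (-0.0042 to 0.47). Cav2 read 14170, 15940 and 13630 in YY1aKO, against 12400, 7188 and 12320 in controls 1 to 3, so its YY1aKO values were above all controls (22.4% of all genes), with an adjusted p of 0.13 without control 2 and 0.23 with it. Adipocytes also express both caveolins at high levels.

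None of the 5 Notch and ephrin genes passed through its brightest probe set, and on these probe sets no gene had all 3 YY1aKO values outside controls 1 and 3. Notch4, a receptor of endothelial cells, had -0.26, and its ligands Dll4 and Jag1, the first typical of arteries and sprouting tips, had -0.08 and 0.09. Efnb2, the arterial ephrin, had -0.39 and its venous receptor Ephb4 -0.06. Efnb2 read 209, 289 and 284 in YY1aKO, against 287, 553 and 398 in controls 1 to 3, with control 2 the highest. Its probe sets disagreed. A second one read 69.2, 91.0 and 88.1 in YY1aKO, against 113, 179 and 143 in controls 1 to 3, and was lower without control 2 (-0.63, adjusted p = 0.037 over all probe sets). The other 2, which were dimmer, had 0.10 and 0.21 and did not pass.

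Of the lymphatic genes, Lyve1, a hyaluronan receptor of lymphatic endothelium that some macrophages also carry, fell. It read 782, 756 and 710 in YY1aKO, against 1071, 402 and 1177 in controls 1 to 3 (-0.58 ± 0.09, adjusted p = 0.0088), and its second probe set had -0.57 and also passed. Pdpn (podoplanin), which fibroblasts and mesothelium share, read 988, 869 and 669 in YY1aKO, against 1201, 1543 and 1135 in controls 1 to 3. It was the only member with every YY1aKO value below all 3 controls (15.5% of all genes), with -0.62 ± 0.19 with all arrays (adjusted p = 0.098) and -0.49 ± 0.17 without control 2 (adjusted p = 0.090). Prox1, the master regulator of lymphatic identity, read 7.98 to 9.53 in YY1aKO, against 7.95 to 9.75 in controls, near the bottom of the range, so the probe set gave little signal in any sample. None of 8 macrophage genes passed in either fit (0 of 8 at an unadjusted p under 0.05). Of all genes, 26.1% passed in either direction without control 2 and 10.8% with all arrays, so 8 genes say little. The part of macrophages in the fall of Lyve1 was not tested.

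To see which members departed from the rest, levels were also taken relative to the mean log2 level of 8 pan-endothelial genes on the same array (Pecam1, Cdh5, Tie1, Tek, Kdr, Esam, Egfl7 and Eng). Such a ratio shows unequal change and not which of its terms moved. On this scale the median of the members was 0.02 without control 2, and that of all genes 0.42. The 8 genes are themselves members, with a median of -0.43 before scaling, so both medians largely restate the shift of the reference. Nos3 lay 1.46 to 1.75 log2 units above the mean of the 8 genes in YY1aKO, against 0.93, 0.66 and 0.81 in controls 1 to 3. The groups did not overlap with control 2 included, as for 4 members above (Nos3, Jag1, Pecam1 and Icam2) and 2 below (Sox7 and Ramp2), where all genes gave 4.33% and 4.26%. Sox7 lay at -1.02, -0.77 and -0.70 in YY1aKO, against 0.53, -0.25 and -0.37 in controls. Without control 2, Nos3 was higher relative to the 8 genes by 0.70 ± 0.26 (adjusted p = 0.036) and Sox7 had -0.91 ± 0.26 (adjusted p = 0.0047), and no other member passed, beside 22.3% of all genes higher and 3.41% lower. This fit gave every gene the same SE, so its p does not reflect the wide spread of Sox7 in the controls. With 6 arrays 0 members passed (adjusted p = 1 for each of these 2 genes), beside 0.0968% of all genes higher and 0.194% lower.

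Signals to vessels were read from a list of 26 genes, which holds VEGFs and angiopoietins together with other growth factors, chemokines and inhibitors that act on vessels, many through receptors not described above. Without control 2, 11 fell (42.3%, against 11.5% of all genes) and 0 rose (14.7% of all genes), with a median of -0.49. Control 2 minus controls 1 and 3 had a median of -0.77 in this list, so these shares of all genes are not a like baseline. With all arrays 2 fell (Thbs2 and Cxcl12, against 3.99% of all genes) and 0 rose (6.85% of all genes). Vegfb, a ligand of the Flt1 product, read 257, 260 and 285 in YY1aKO, against 1105, 344 and 1081 in controls 1 to 3. Every YY1aKO value was below every control, and without control 2 the difference was -2.03 ± 0.09 (adjusted p = 0.00092, 4.10-fold lower), or -1.48 ± 0.47 with control 2 (adjusted p = 0.10). Vegfd, a ligand of the Flt4 product, read 338, 368 and 374 in YY1aKO, against 703, 278 and 595 in controls 1 to 3 (-0.85 ± 0.11, adjusted p = 0.0050). Adm (adrenomedullin), the peptide bound by the Calcrl and Ramp2 products, read 83.5, 84.7 and 74.3 in YY1aKO, against 220, 74.1 and 192 in controls 1 to 3 (-1.35 ± 0.11, adjusted p = 0.0020). Thbs2, an inhibitor of vessel growth, read 108, 107 and 95.9 in YY1aKO, against 488, 233 and 659 in controls 1 to 3, and fell in both fits (-2.45 ± 0.15, adjusted p = 0.0013 without control 2, and -2.02 ± 0.38, adjusted p = 0.029 with it). Its call with all 6 arrays was lost when any 1 array other than control 2 was left out.

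Vegfa and Vegfc, chosen after their values were seen, also fell without control 2. Vegfa, the main growth factor of blood vessels, read 317, 330 and 382 in YY1aKO, against 580, 337 and 484 in controls 1 to 3 (-0.63 ± 0.13, adjusted p = 0.018, or -0.38 and 0.086 with the mean of its probe sets). Its call was lost without YY1aKO 1, YY1aKO 2 or control 1. Vegfc, which acts on lymphatic vessels, read 62.8, 56.3 and 48.4 in YY1aKO, against 116, 50.6 and 98.2 in controls 1 to 3 (-0.95 ± 0.14, adjusted p = 0.0080). With control 2 included neither passed. The angiopoietins Angpt1 and Angpt2, ligands of the Tek product, had -0.30 and -0.22 without control 2 and did not pass.

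**Figure D4:**
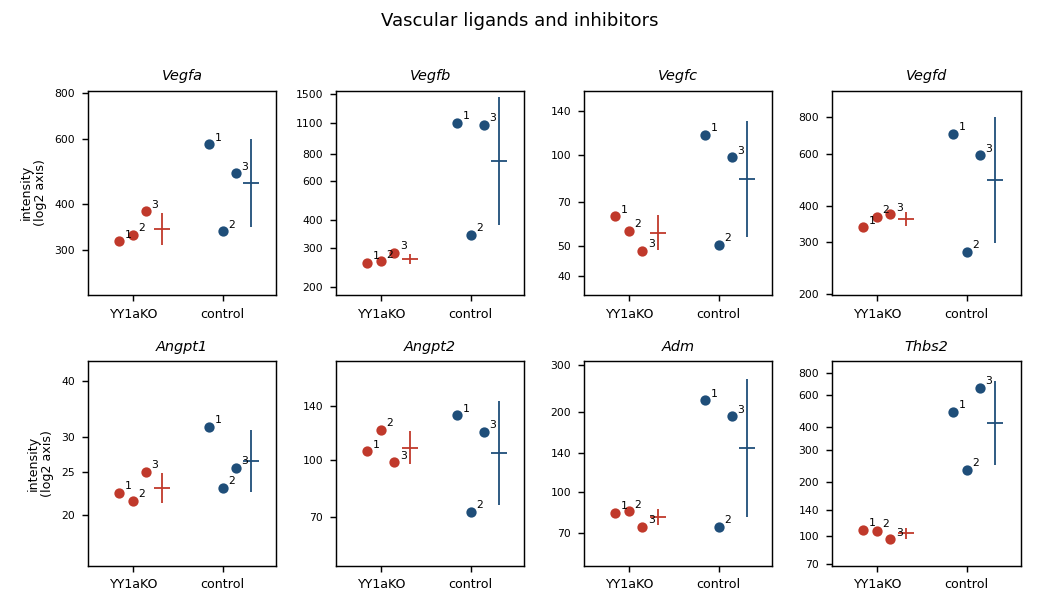
Intensity (log2 axis) of the VEGF and angiopoietin ligands, Adm and Thbs2 in YY1aKO (left) and control (right). Numbers give the replicate, and the bar gives the mean ± SD of the log2 values of the 3 arrays. Vegfb and Thbs2 separate the groups on all 6 arrays.

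Mural cells, the pericytes and smooth muscle that wrap vessels, were read through 11 genes, of which 2 fell without control 2 (18.2%, against 11.5% of all genes) and 0 rose (14.7% of all genes), with a median of -0.26. Myh11, the smooth muscle myosin, read 238, 238 and 272 in YY1aKO, against 498, 502 and 411 in controls 1 to 3 (-0.86 ± 0.12, adjusted p = 0.0067), and also fell with all 6 arrays (-0.91 ± 0.12, adjusted p = 0.014, lost without any 1 of the YY1aKO arrays). Tagln had -0.63 ± 0.17 (adjusted p = 0.041, lost without any 1 further array), while the pericyte genes Pdgfrb, Rgs5, Cspg4, Abcc9 and Kcnj8 did not pass. Acta2 and Des did not pass either without control 2 (-0.26 and 0.11, limma adjusted p = 0.51 and 0.53), nor did Notch3 and Mcam. A list of 63 further endothelial genes had 52 measured. Without control 2, 14 of them were lower (26.9%, against 11.5% of all genes) and 3 higher (5.77%, against 14.7% of all genes), namely Fabp5, Stab2 and Cav3, and the median was -0.33. With all arrays 2 of the 52 were lower (Notch1 and Sox4, beside 3.99% of all genes) and 2 higher (Fabp5 and Stab2, beside 6.85%). Thbd (thrombomodulin), an anticoagulant receptor, read 774, 790 and 749 in YY1aKO, against 1842, 701 and 2241 in controls 1 to 3 (-1.40 ± 0.11, adjusted p = 0.0019). Cavin3, of the caveolar coat, had -1.01 ± 0.14 and Acvrl1, a BMP receptor of endothelium, -0.66 ± 0.10 (adjusted p = 0.0067 and 0.0080). Fabp5, a fatty acid carrier that adipocytes and macrophages also express, rose by 1.18 ± 0.15 (adjusted p = 0.0056), and its call with all arrays was lost without any 1 of the YY1aKO arrays or control 3.

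Of 17 measured hypoxia-related genes of 18 listed, 5 were higher without control 2 (Egln3, Pdk1, Pgk1, Ldha and Ero1a), which is 29.4%, against 14.7% of all genes. A further 7 were lower (41.2%, against 11.5% of all genes), and the median was -0.09. Control 2 minus controls 1 and 3 had a median of -0.44 in this list, so the shares of all genes are not a like baseline here. Egln3, an oxygen-sensing prolyl hydroxylase, read 163, 197 and 192 in YY1aKO, against 83.0, 191 and 74.4 in controls 1 to 3 (1.22 ± 0.12, adjusted p = 0.0029). Control 2 read like YY1aKO. Ndrg1 had -1.31 ± 0.13 and Arnt, the partner of the hypoxia-inducible factors, -0.55 ± 0.08 (adjusted p = 0.0031 and 0.0082). Vegfa and Adm are members of this list and of the ligands. With all 6 arrays Ero1a was higher (beside 6.85% of all genes) and Slc2a1 and Ndrg1 were lower (beside 3.99%). The call of Ndrg1 was then lost without any 1 of the YY1aKO arrays or control 3.

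Marker genes of other cells were read in the same way, without control 2, where 11.5% of all genes were lower and 14.7% higher. Shares of all genes are not a like baseline for the lists that read low in control 2. The 8 measured adipocyte genes of 10 listed had a median of -0.19 with Retn lower (12.5%), and the 8 macrophage genes -0.08 with none called. The 8 fibroblast genes had -0.32 with Pi16 lower (12.5%), and the 6 mesothelial genes of 8 listed -0.63 with Wt1 lower (16.7%). All 3 YY1aKO values lay below controls 1 and 3 for 7 of the 8 fibroblast genes and 4 of the 6 mesothelial genes. The same held for 3 of the 8 adipocyte genes and 1 of the 8 macrophage genes, beside 26 of the 43 members (25.2% of all genes). The 6 skeletal muscle genes had 0.19, with Acta1 and Mylpf higher (33.3%), and the 5 measured platelet and red cell genes of 6 listed had 0.11 with none called. The 6 epididymal genes had -0.27 with none called.

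Summed intensities show where these lists stood on the arrays. The adipocyte genes summed to 86155 to 92322 in YY1aKO, against 67306 to 109969 in controls. The macrophage genes summed to 11286 to 13472 in YY1aKO, against 7492 to 13949 in controls. The 8 pan-endothelial genes summed to 2947 to 3640 in YY1aKO, against 1828 to 4853 in controls. In these 3 lists control 2 was the lowest array. The fibroblast genes summed to 27242 to 33911 in YY1aKO, against 24533 to 38896 in controls. The 24533 is control 2, the lowest array in this list too. The mesothelial genes summed to 2494 to 4394 in YY1aKO, against 5145 to 10923 in controls. The 10923 is control 2 and comes mostly from the keratins Krt8 (4265), Krt18 (3956) and Krt19 (1288), which epithelia share. Msln, Upk3b and Wt1 were lowest in control 2. Krt8, Krt18 and Krt19 also read higher in control 3 (1860, 874 and 752) than in control 1 (495.9, 257 and 424.5). The skeletal muscle genes summed to 1299 to 2130 in YY1aKO, against 276 to 339 in controls. Acta1, the skeletal muscle actin, made up most of these sums in YY1aKO, with 1945, 1107 and 1942 in YY1aKO, against 178, 110 and 171 in controls 1 to 3. Ckm, Myh1 and Tnnt3 overlapped between the groups and did not pass. Like Acta1, Mylpf and Myh4 had every YY1aKO value above all 3 controls (22.4% of all genes), at low levels. Mylpf read 69.4 to 74.5 in YY1aKO, against 51.1 to 61.1 in controls. Myh4, which did not pass, read 13.85 to 15.26, against 11.62 to 12.27. No marker was at 0, since the arrays give no zeros. Control 2 lay 1.15 log2 units below controls 1 and 3 by the median of the adipocyte genes, 0.92 by the macrophage genes and 0.95 by the mural genes. The part of these other cells in the endothelial differences was not tested.

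**Figure D5:**
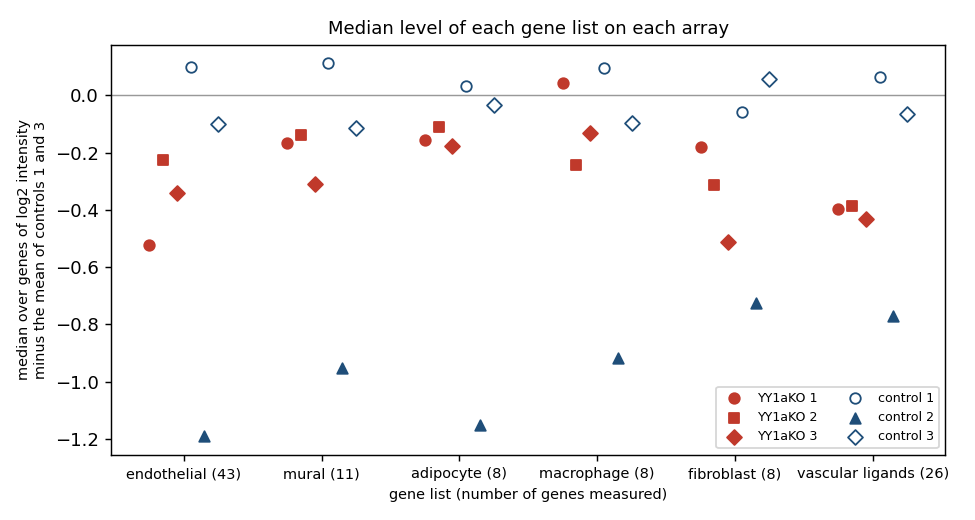
Median over the genes of each list of the log2 intensity minus the mean of controls 1 and 3 (vertical axis), for YY1aKO 1 to 3 (filled red) and controls 1 to 3 (blue, control 2 as a filled triangle). The endothelial median was -0.52, -0.23 and -0.34 in YY1aKO and -1.19 in control 2.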

How the data were processed

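RNA of 3 YY1aKO and 3 control samples of white adipose tissue was measured on Affymetrix arrays. The authors deposited intensities by probe set, which RMA produced per the submitters' processing notes (no version or settings given). RMA removes changes shared by most genes. The values, 6.09 to 30322, are on a linear scale, and their log2 was taken. Of 22690 probe sets, 64 controls, 691 with several genes and 1555 with none named were left out, and 20380 with 1 gene symbol were kept (20351 matched to RefSeq by Entrez ID). Each of 12393 genes was read through its brightest probe set.

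limma 3.58.1 in R 4.3.3 (lmFit, eBayes) gave log2 differences, YY1aKO minus control, two-sided, with Benjamini-Hochberg adjustment over all 12393 genes and a threshold of 0.05. No detection calls were used. Group names came from the sample titles. The members and lists were chosen with earlier results of these data known. Values in every sample are given for members past the threshold in either fit, for Pecam1, Cdh5, Tie1, Tek and Kdr, and for the lymphatic genes. Up to 4 genes with the smallest p without control 2 are named per companion list. Sox7, Nos3, Cav1, Cav2, Efnb2, Vegfa, Vegfc, Cxcl12, Angpt1 and Angpt2 were chosen after their values were seen, and other members are given by value or count. Same-numbered samples did not deviate together (correlations of deviations from group means of -0.12, -0.08 and -0.10), so no pairing was used. Scripts were tested on simulated data. Alternatives were other probe set choices, a filter on dim genes, 3 other scalings, a trended robust prior, array weights, a replicate block and leaving out arrays.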

Additional observations from a re-analysis of the deposited data

How the results depend on the processing

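With 6 arrays, 0 members were higher and 0 lower in all alternatives except array weights (9 lower) and leaving out control 2 (0 to 11 lower over the 6 arrays left out in turn), and their median ran from -0.39 to 0.30. Without control 2, the number of falls went from 11 to 7 with the same median on every array and to 0 with the replicate block. It was 5 to 7 with 1 YY1aKO array left out as well. With any 1 further array left out the median ran from -0.50 to -0.25. Relative to the 8 pan-endothelial genes none of the 11 passed. There Sox7, which is not among the 11, was lower, Nos3 was higher and the median was 0.019. In the other alternatives 8 to 16 fell and 0 rose. The block leaves few residual degrees of freedom, and same-numbered samples share only a number. Tek ran from -0.50 without control 2 to 0.40 without control 1 (0.04 with 6 arrays), and Egfl7 lost its sign relative to the 8 genes (0.0038), of which it is 1. Counts of all genes called with 6 arrays were 849 higher and 495 lower, with array weights 2638 and 2255, with the replicate block 5 and 7, relative to the 8 genes 12 and 24, and with single arrays left out 10 to 1817 and 15 to 1422. Without control 2 they were 1817 and 1422, with the block 251 and 291, relative to the 8 genes 2764 and 423, and with a further array left out 969 to 1517 and 761 to 1501. For the 65 genes given with values, 876 of 960 values with 6 arrays and 780 of 895 without control 2 stayed on their side of the threshold, 38 and 95 lost a call, and 45 and 19 gained one. In 101 and 46 of these cases a value past the threshold in neither setting changed sign. Signal near background limits Prox1 and Sele. Of the 43 members, 34 were among the brightest 60% of genes. Besides Prox1 and Sele, the dimmer ones were Erg, Rasip1, Tie1, Flt4, Tal1, Dll4 and Ephb4. Of 25 further probe sets of members, 20 had the sign of the used one without control 2. Of the 25, 2 were called lower and 0 higher.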

Other observations

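Further genes tied to vessels, chosen after their values were seen, moved without control 2. Bmp4 and Bmp6, secreted bone morphogenetic proteins, had -0.81 ± 0.10 and -0.66 ± 0.11 (SE, limma adjusted p = 0.0053 and 0.012). Bmp4 read 253, 247 and 213 in YY1aKO 1 to 3, against 408, 202 and 422 in controls 1 to 3. Bmp6 read 125, 126 and 130 in YY1aKO, against 224, 62.5 and 180 in controls 1 to 3. With control 2 included neither passed (adjusted p = 0.38 and 0.92).

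Notch1, a receptor read in the list of further endothelial genes, was lower with and without control 2 (-0.88 ± 0.15, adjusted p = 0.024, and -0.75 ± 0.12, adjusted p = 0.0088). It read 413, 512 and 494 in YY1aKO, against 805, 1039 and 782 in controls 1 to 3, so the groups did not overlap. Cxcl12, a chemokine of stromal and endothelial cells, read 551, 529 and 634 in YY1aKO, against 869, 870 and 1088 in controls 1 to 3 (-0.72 ± 0.13, adjusted p = 0.028 with all arrays, or -0.28 and 0.45 with the mean of its probe sets, which disagree). With all arrays, both calls were lost without any 1 of the YY1aKO arrays or control 3. Without control 2, Cxcl12 had -0.77 (adjusted p = 0.013), lost without YY1aKO 2. In both genes control 2 lay within or above the other controls, unlike in most of the endothelial group.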
